A study of Arabidopsis with 26 samples.

Results

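Chromatin immunoprecipitation followed by sequencing (ChIP-seq) of GFP-tagged SWI/SNF subunits gave 26 peak lists from Arabidopsis seedlings, and the regions that hold a peak of all 26 lists are described here. Peaks of all lists on chromosomes 1 to 5 were joined wherever they shared at least 1 bp, which gave 23012 merged regions. Of these, 2240 held at least 1 peak of every list (9.73%), and they are called the common regions. The regions were chosen by the presence of a called peak in every list, so the strength, the width and the numbers of peaks given below are descriptions and carry no test.

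Every library came from 14-day-old seedlings and was precipitated with an antibody against GFP. By the names of the lists the lines were BRM-GFP brm-1 (2 lists), BRM-GFP brm-1 syd-5 (2), SYD-N-GFP syd-5 (4), SYD-N-GFP syd-5 brm-1 (2), SYD-N-GFP syd-5 swi3d-1 (2), SWI3D-GFP swi3d-1 (3), SWI3D-GFP swi3d-1 syd-5 (2) and MINU2-GFP minu2-1 (2). The lines BSH-GFP bsh, SWI3A-GFP swi3a-3, SWI3C-GFP, SWP73A-GFP swp73a-2, SWP73B-GFP swp73b-1, BCL7A-GFP bcl7a and BCL7B-GFP bcl7b had 1 list each and therefore no replicate check. Each name except SWI3C-GFP carries a mutant allele of the tagged gene, and 4 of the lines carry a mutation of a second subunit. The promoter of the transgenes is not given in the sources used here, and no list of a line without GFP was analysed here. Whole seedlings were used, so occupancy in few cells and weak occupancy in many cells cannot be told apart.

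For 19 of the 26 lists, the line given by the label differed from that in the list's own name. The labels call the SYD lines SYD-GFP, and they give swi3a-1, bcl7a-1 and bcl7b-1 where the list names give swi3a-3, bcl7a and bcl7b. Lines are given here by the name of the list, since in 4 lists the peaks carry names that hold the text syd-5. The name of the list stated a SYD-N-GFP syd-5 line in 4 of these 4, and the label stated a SYD-GFP line in 0 of 4. The lists held 4383 to 21329 peaks on chromosomes 1 to 5. Organelle peaks were present in 12 lists and absent from 14. Read numbers are not part of a peak list, so the depth of each library is unknown.

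SWI/SNF complexes use the energy of ATP to slide or evict nucleosomes and so change the access of other proteins to DNA. Plants have several classes of the complex, each built around the ATPase BRM, SYD or MINU (MINU1 or MINU2). SWI3C is known as a partner of BRM, SWI3D as a partner of SYD, and SWI3A and BSH as partners of MINU, while SWP73 and BCL7 proteins are found in more than a single class. The ATPases are known for roles in hormone responses, flowering and organ formation.

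More regions held a peak of every list than a peak of any other number of lists. Regions in 25 lists numbered 1119, and regions in 1 list numbered 1652. The common regions covered 7.61 Mb of the 30.8 Mb of all merged regions (24.7%). In the lists of peaks, strength was ranked by the authors' −log10 q, and the percentile of a peak is the percent of the peaks of its own list at or below it. Over the common regions the mean percentile across lists had a median of 80.1, against 68.9 in the regions 1 list short of all. The mean of the authors' fold enrichment had a median of 5.15 in the common regions and 4.30 in those with 25 lists.

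**Figure D1:**
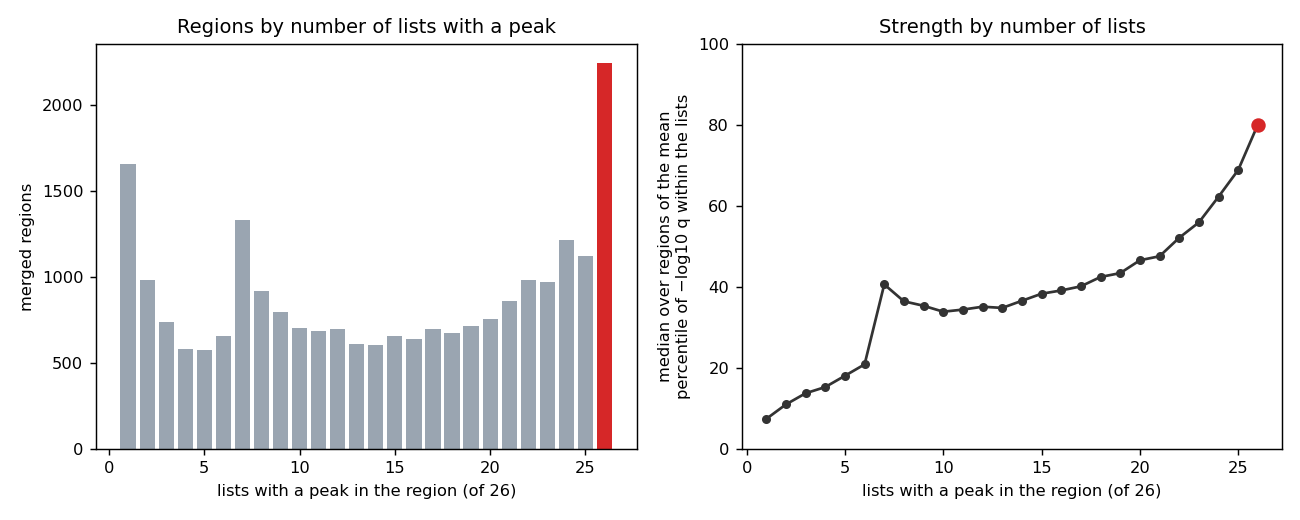
Left, number of merged regions (vertical axis) by the number of lists that hold a peak in them (horizontal axis). Right, the median over those regions of the mean percentile of −log10 q within the lists. Red marks the 2240 regions with a peak in all 26 lists, whose median mean percentile was 80.1, against 68.9 with 25 lists.

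The shortest lists were the ones most often missing. Of the 1119 regions that lacked a single list, 674 (60.2%) lacked replicate 2 of SYD-N-GFP syd-5 swi3d-1, the shortest list with 4383 peaks. A further 249 (22.3%) lacked replicate 1 of the same line, with 5227 peaks. SWI3D-GFP swi3d-1 syd-5 replicate 2, with 7062 peaks, was the missing list in 89, and SWP73A-GFP swp73a-2, with 8960 peaks, in 46. The other lists were each missing in 0 to 21 regions. Without both SYD-N-GFP syd-5 swi3d-1 lists, 3924 regions held a peak of every remaining list.

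Counted from the top of each list, the common regions ranked lowest in the lists named for MINU2, BSH and SWI3A. If the 2240 regions were the strongest of a list, their median rank from the top would be 1120.5. In the 22 lists outside the MINU2, BSH and SWI3A lines, the median rank was 1452.5 at the lowest, 1660.25 at the median and 3033.5 at the highest, the last in SWP73B-GFP swp73b-1. In MINU2-GFP minu2-1 it was 5916.5 and 5992, in BSH-GFP bsh 5811 and in SWI3A-GFP swi3a-3 7635.5. By rank these 4 lists did not overlap the 22 others. Lists of different length do not share a scale of ranks, and the ranks show no change in occupancy. By percentile the 4 lists, at 60.4 to 70.4, overlapped SYD-N-GFP syd-5 swi3d-1, at 64.4 and 70.9. Over the 739 common regions with exactly 1 peak per list, the 4 lists had median percentiles of 70.3 to 80.3, overlapping the 78.3 to 85.6 of the BRM and SWI3C lists, and their mean was 77.002 against 82.4. Of the other 22 lists, 3 had at least as many peaks as the shortest of these 4, and their median ranks were between 1656.5 and 3033.5.

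All 4 lists of the MINU2, BSH and SWI3A lines held organelle peaks, so the comparison was repeated among the lists that did. There the 4 lists had median ranks of 5811 to 7635.5, the 5 SWI3D lists had 1539 to 1905, SWI3C-GFP had 1768.5, and the SWP73A and SWP73B lists had 1866.5 and 3033.5. Among lists with organelle peaks the 4 lists thus also ranked lowest. They held 17505 to 19631 peaks, the 5 SWI3D lists 7062 to 16629, SWI3C-GFP 12242, and the SWP73A and SWP73B lists 8960 and 21329. None of the 4 lacked organelle peaks, so they could not be compared among lists without them, and the cause of the lower ranks was not tested. By their labels the 4 lists are SWP73B-GFP swp73b-1, replicate 1 of SYD-GFP syd-5 brm-1, and replicates 3 and 4 of SYD-GFP syd-5, so the line they stand for depends on the record used.

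By percentile, which is bounded by the length of a list, the common regions had a median of 91.0 ± 0.445 (SD, n = 4 lists) in SYD-N-GFP syd-5, and the BRM-GFP brm-1 lists had 88.0 ± 0.339 (SD, n = 2). The BRM-GFP brm-1 syd-5 lists had 90.04 ± 0.468 (SD, n = 2). It was 88.8 ± 1.26 (SD, n = 2) in SYD-N-GFP syd-5 brm-1 and 88.3 ± 2.49 (SD, n = 3) in SWI3D-GFP swi3d-1. It was 67.1 ± 1.25 (SD, n = 2) in MINU2-GFP minu2-1, with 70.4 in BSH-GFP bsh and 60.4 in SWI3A-GFP swi3a-3. The single lists of SWI3C, SWP73A, SWP73B, BCL7A and BCL7B gave 85.6, 79.2, 85.8, 90.8 and 91.7. SYD-N-GFP syd-5 swi3d-1 (67.6 ± 4.60, SD, n = 2) and SWI3D-GFP swi3d-1 syd-5 (80.1 ± 3.26, SD, n = 2) were also low. In these 4 short lists the median percentile could reach at most 78.6, 74.5, 87.2 and 84.1, the values if the common regions were the strongest peaks, and it was 70.9, 64.4, 82.4 and 77.8. In the MINU2, BSH and SWI3A lists it could reach 93.6 to 94.3. Ordered by their labels instead, the libraries labelled MINU2-GFP minu2-1 had 86.1 ± 5.16 (SD, n = 2) and those labelled SYD-GFP syd-5 had 78.9 ± 13.6 (SD, n = 4).

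The strongest peaks of a list were mostly common regions in the SYD and BRM lists. Among the 100 strongest peaks of each list, 92 to 100 lay in a common region in the 4 SYD-N-GFP syd-5 lists, and 82 and 86 did in BRM-GFP brm-1. In MINU2-GFP minu2-1 the numbers were 13 and 14, in BSH-GFP bsh 12 and in SWI3A-GFP swi3a-3 9. Taking the top decile of each list, 40.2% to 85.7% of the peaks lay in common regions in the 22 other lists, and 17.3%, 17.3%, 17.9% and 11.8% did in the 2 MINU2, the BSH and the SWI3A lists. Over all peaks of a list the share in common regions was 18.3% to 19.5% in these 4 lists, so their top decile held no larger a share than the whole list. The whole-list share was 58.3% and 66.8% in SYD-N-GFP syd-5 swi3d-1, whose top deciles had 85.7% and 83.6%, and 17.2% to 22.0% in SYD-N-GFP syd-5, whose top deciles had 76.1% to 78.3%.

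The fold enrichment of the common regions was above the median of all peaks in every list, by different amounts. The fold of a common region is that of the strongest peak of the list in it, while the median of a list counts every peak. Where a list has several peaks in a region, taking the strongest can only raise the fold, and the part of this in the ratios was not tested. In BRM-GFP brm-1 the median fold of the common regions was 5.18 and 4.98 in the 2 replicates, against 2.80 and 2.79 over all peaks of those lists. In SYD-N-GFP syd-5 it was 7.66, 8.29, 6.39 and 6.28 in replicates 1 to 4, against 3.28, 3.30, 3.02 and 3.11 over all peaks. In MINU2-GFP minu2-1 it was 3.59 and 3.70, against 3.22 and 3.21. Divided by the median of all peaks, the fold of the common regions was 1.10 to 1.18 times higher in the MINU2, BSH and SWI3A lists, 1.78 to 1.95 times in the 4 BRM lists and 2.02 to 2.51 times in the 4 SYD-N-GFP syd-5 lists. SYD-N-GFP syd-5 swi3d-1, with 2.54 and 2.48 against 2.27 and 2.33, had ratios of 1.12 and 1.06.

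**Figure D2:**
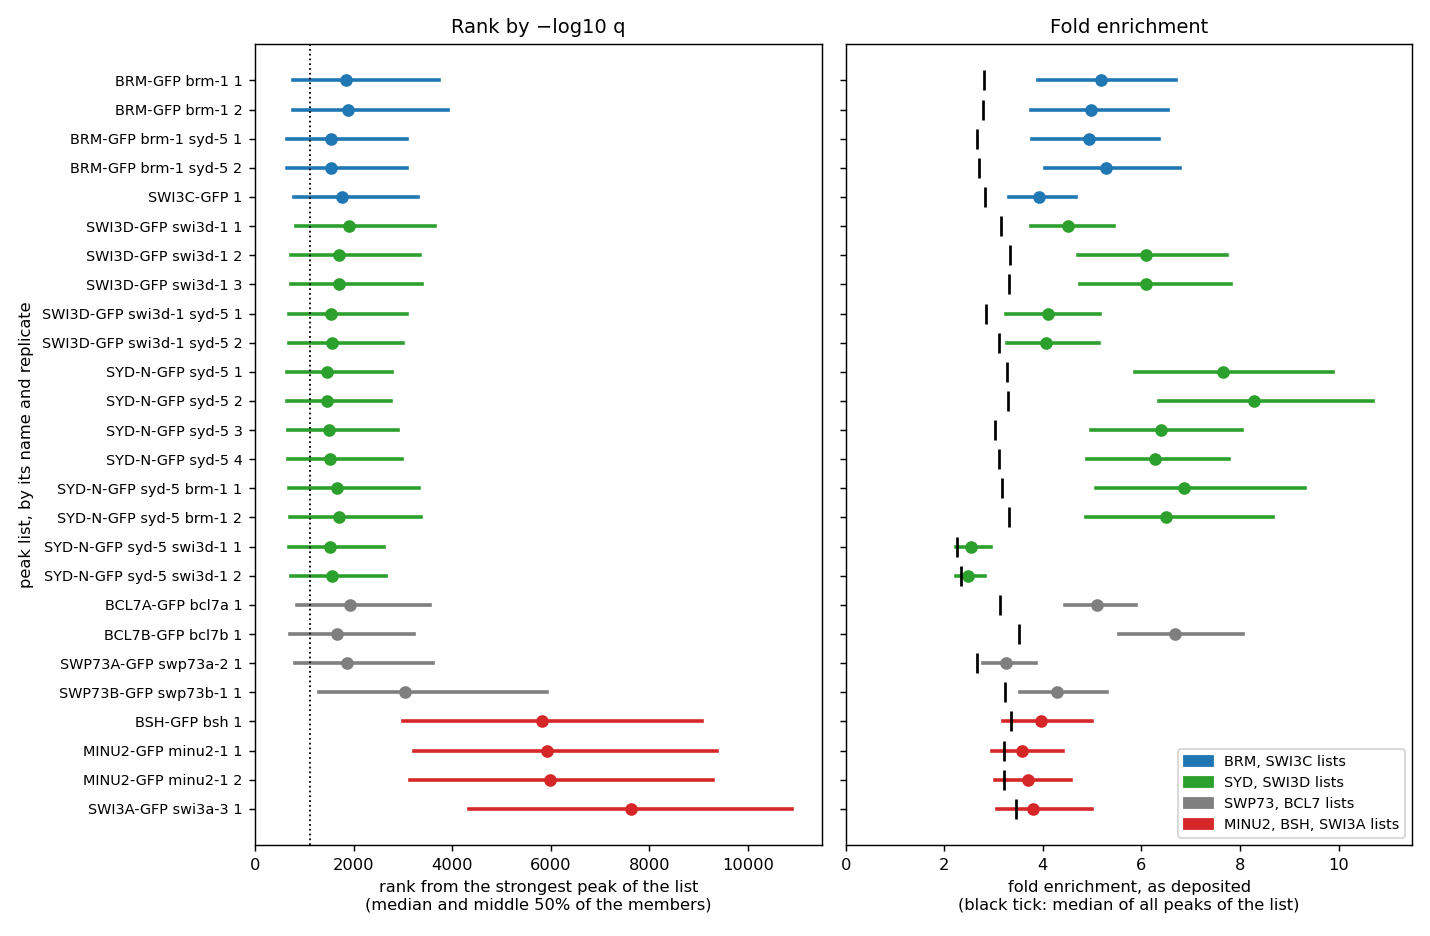
Left, rank of the common regions from the strongest peak of each list by −log10 q. Right, the authors' fold enrichment of the same regions. Points are medians, bars the middle 50% of the regions, and lists are named by list name and replicate. The dotted line at 1120.5 is the lowest median rank possible, and black ticks are the median fold of all peaks of a list. The MINU2, BSH and SWI3A lists (red) had median ranks of 5811 to 7635.5, and all other lists lay at 3033.5 or lower.

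The number of lists that placed a common region in their top decile varied widely. A common region was in the top decile of a median of 9 of the 26 lists, and 245 regions were in the top decile of none. In all 26 lists 9 regions (0.402%) were in the top decile, a number bounded by the shortest list, whose top decile held 343 common regions. Of the 2240, 591 (26.4%) were above the 50th percentile of all 26. All BRM and SYD lists of the brm-1 and syd-5 single-mutant lines placed 590 regions (26.3%) in their top decile, and 41 of these 590 were also in the top decile of both MINU2 lists. The mean percentile was higher in the MINU2 lists than in the BRM lists of BRM-GFP brm-1 for 593 regions (26.5%), and higher than in SYD-N-GFP syd-5 for 438 (19.6%). It was higher in SYD-N-GFP syd-5 than in BRM-GFP brm-1 for 1432 (63.9%).

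The lowest fold of a common region came from SYD-N-GFP syd-5 swi3d-1 in 1612 of 2240 regions (72.0%), and next from MINU2-GFP minu2-1 in 202 (9.02%). Over all their peaks, the SYD-N-GFP syd-5 swi3d-1 lists had the lowest median folds, 2.27 and 2.33, against 2.65 to 3.51 in the other lists. The lowest percentile came from this line in 683 regions (30.5%), from SWI3A-GFP swi3a-3 in 516 (23.0%) and from MINU2-GFP minu2-1 in 397 (17.7%). The highest fold came from SYD-N-GFP syd-5 in 1092 regions (48.8%), from SWI3D-GFP swi3d-1 in 375 (16.7%) and from SYD-N-GFP syd-5 brm-1 in 277 (12.4%). Lines with more lists have more chances to hold an extreme value. A fold under 2 was present in at least 1 list for 396 regions (17.7%) and in at least 13 lists for 0.

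Across the 2240 regions, Spearman's rho of the percentile between pairs of lists described how far the lists ranked the regions alike. The points share the merging of peaks and the presence of a peak in every list, and neighbouring regions are not independent, so no test is given. Replicate lists of a line had rho of 0.657 to 0.973, the lowest between the 2 SYD-N-GFP syd-5 swi3d-1 lists. The 4 MINU2, BSH and SWI3A lists had 0.808 to 0.885 among themselves. SYD-N-GFP syd-5 and SWI3D-GFP swi3d-1 lists had a mean of 0.750 with each other, over 12 pairs, and BRM-GFP brm-1 and SYD-N-GFP syd-5 lists had 0.544, over 8 pairs.

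Between the MINU2, BSH and SWI3A lists and the BRM and SWI3C lists the mean rho was −0.0998 (−0.228 to 0.186). With the SYD and SWI3D lists it was −0.0615 (−0.235 to 0.186). Within the common regions, the order of the regions in these 4 lists thus had little relation to their order in the BRM or the SYD lists. SWP73B-GFP swp73b-1 lay between, with a mean of 0.507 to the MINU2 lists, 0.294 to SYD-N-GFP syd-5 and 0.0837 to BRM-GFP brm-1. SWI3C-GFP had 0.428 with BRM-GFP brm-1 and 0.558 with BRM-GFP brm-1 syd-5. Its rho was higher with SWP73A-GFP swp73a-2 (0.739), SWI3D-GFP swi3d-1 (0.680), BCL7B-GFP bcl7b (0.636) and SYD-N-GFP syd-5 (0.597). With SYD-N-GFP syd-5 brm-1 and SYD-N-GFP syd-5 swi3d-1 it was 0.473 and 0.509. For BCL7B-GFP bcl7b the mean rho was 0.698 to the BRM-GFP brm-1 lists and 0.774 to the BRM lists that also carry syd-5. It was similar to SYD-N-GFP syd-5 (0.694), BCL7A-GFP bcl7a (0.732) and SWP73A-GFP swp73a-2 (0.652), so it was not particular to BRM. Lower values were 0.535 to SWI3D-GFP swi3d-1, 0.521 to SYD-N-GFP syd-5 brm-1 and 0.0420 to MINU2-GFP minu2-1.

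**Figure D3:**
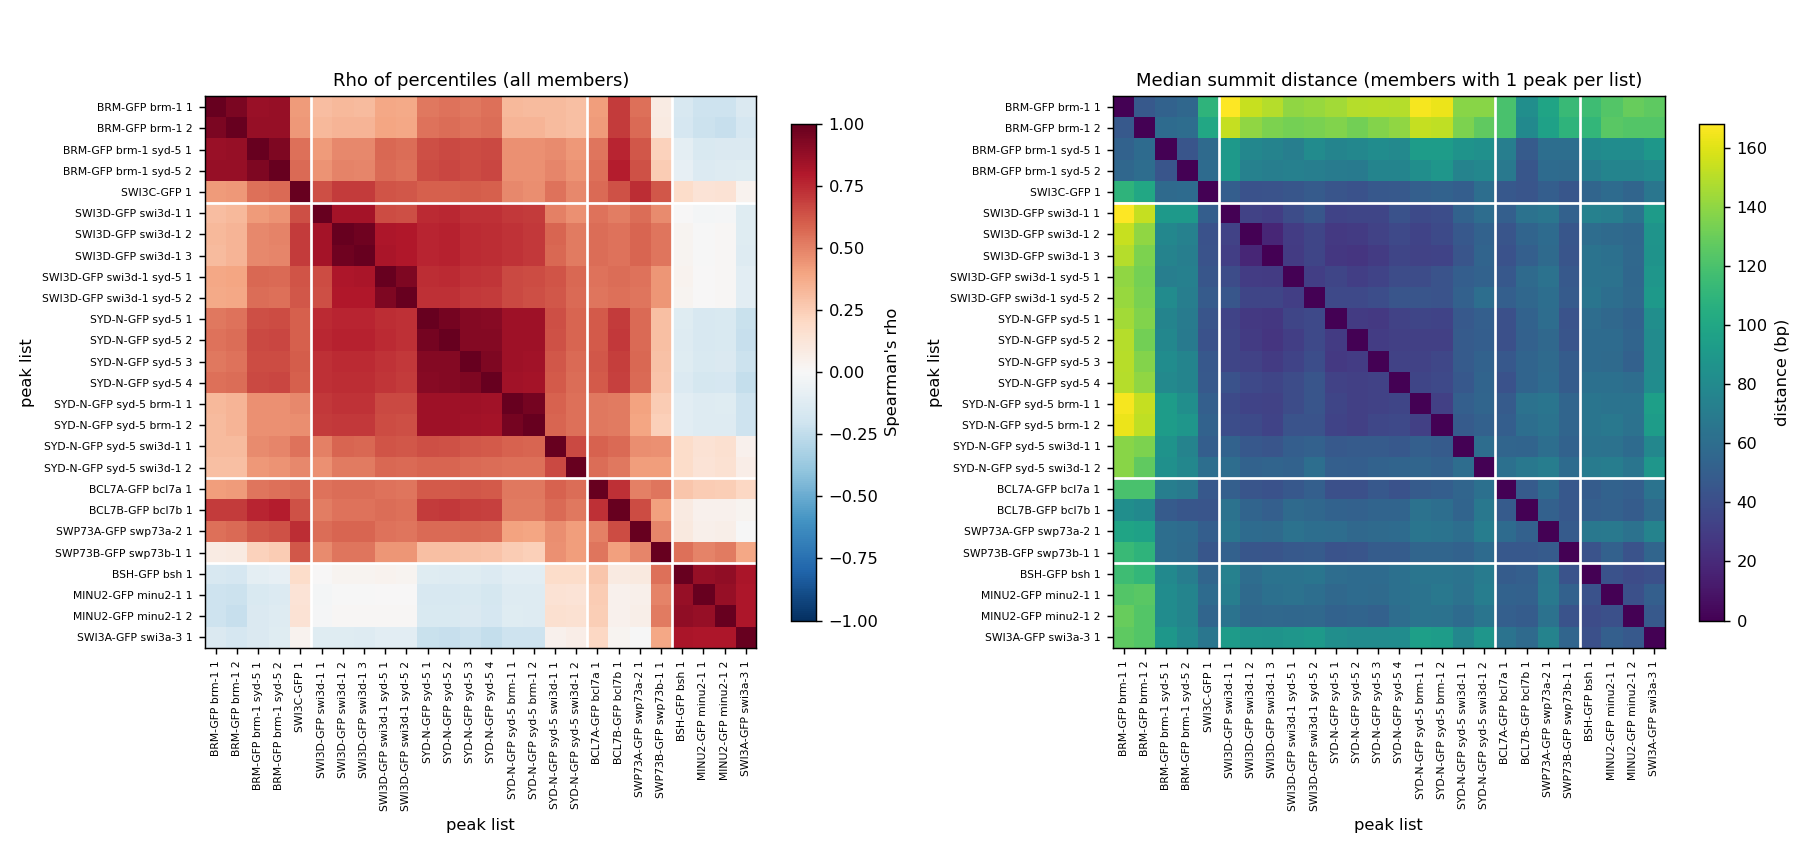
Left, Spearman's rho between each pair of lists of the percentile of −log10 q over all 2240 common regions (members). Right, the median distance in bp between the summits of each pair of lists, over the 739 common regions with exactly 1 peak per list. White lines separate, from the top, the BRM and SWI3C lists, the SYD and SWI3D lists, the BCL7 and SWP73 lists, and the MINU2, BSH and SWI3A lists. The last block has rho of 0.808 to 0.885 within itself, and the BRM-GFP brm-1 lists have the longest summit distances.

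The merged width of the common regions had a median of 2805 bp and ranged from 632 to 22752 bp, against a median of 907 bp over all merged regions. A merged region grows with each list that adds a peak, so the width of single peaks was also compared. The median peak width of a region over its lists was 1094 bp in the common regions, 865 bp in regions with 25 lists and 540 bp over all merged regions. The median peak width in the common regions was 2170 bp in BCL7B-GFP bcl7b, 1917 and 1864 bp in BRM-GFP brm-1. The BRM-GFP brm-1 syd-5 widths were 1782 and 1875.5 bp. It was 848 and 916 bp in MINU2-GFP minu2-1 and 546 and 475 bp in SYD-N-GFP syd-5 swi3d-1.

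A stretch covered by all 26 lists existed in 1923 of the common regions (85.8%), with a median length of 340 bp. In the other common regions the lists were joined only through overlapping neighbours. Exactly 1 peak per list was present in 739 regions (33.0%), whose median merged width was 1479 bp. The number of peaks in a common region had a median of 33 and reached 149.

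Summits lay closest where a region held 1 peak per list. In the 739 such regions the mean distance between the summits of pairs of lists had a median of 90.6 bp, against 91.7 bp in the 521 regions with 1 peak in each of 25 lists. Over all 2240 common regions it was 227 bp, and all 26 summits lay within 500 bp in 789 (35.2%). In the regions with 1 peak per list, the median summit distance between replicate lists was 18 to 60 bp.

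The position of the summit differed most for BRM-GFP brm-1. Its 2 lists lay 47 bp apart by the median distance, and each was 142 bp on average from the SYD-N-GFP syd-5 lists (132 to 150 bp over 8 pairs). BRM-GFP brm-1 syd-5 lay nearer to SYD-N-GFP syd-5, at 75.8 bp (69 to 82 bp over 8 pairs), and its own replicates lay 44 bp apart. Summits of BRM-GFP brm-1 and BRM-GFP brm-1 syd-5 were 57 bp apart (53 to 60 bp over 4 pairs). The ranges over pairs did not overlap, although the pairs share lists and are not independent. The label and the list name agreed for all 4 BRM lists, and for replicates 3 and 4 of SYD-N-GFP syd-5.

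MINU2 summits were 125 bp from BRM-GFP brm-1, 79.0 bp from BRM-GFP brm-1 syd-5 and 56.9 bp from SYD-N-GFP syd-5, as means over pairs. SYD-N-GFP syd-5 and SWI3D-GFP swi3d-1 summits were 32.5 bp apart, close to the distances between replicates. SWI3C-GFP summits lay 105 bp from BRM-GFP brm-1 and 58.5 bp from BRM-GFP brm-1 syd-5. They were nearer to SYD-N-GFP syd-5 (44.8 bp), SWI3D-GFP swi3d-1 (45 bp), SWP73B-GFP swp73b-1 (45 bp) and BCL7B-GFP bcl7b (44 bp). From SWI3A-GFP swi3a-3 they were 66 bp away.

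The region with the highest mean percentile (99.4) was chromosome 1, 21363424 to 21365221, with its median summit inside Cand1 (AT1G57680), a gene annotated as a candidate G-protein-coupled receptor. All coordinates are on the TAIR10 build. Its fold was 13.5 and 12.9 in BRM-GFP brm-1, while the BRM-GFP brm-1 syd-5 lists gave 18.3 and 20.7. In SYD-N-GFP syd-5 it was 22.4, 25.1, 17.1 and 16.6 in replicates 1 to 4, and in SYD-N-GFP syd-5 brm-1 17.2 and 15.3. BCL7B-GFP bcl7b had 17.4, and SWI3D-GFP swi3d-1 replicates 1 to 3 had 10.3, 17.1 and 17.4. The highest values were in the 4 SYD-N-GFP syd-5 lists and the 2 BRM-GFP brm-1 syd-5 lists, together with these BCL7B and SWI3D lists at 17.1 to 17.4 and SYD-N-GFP syd-5 brm-1 replicate 1. The lists of MINU2 (7.69 and 7.48), BSH (8.74), SWI3A (7.16), SWP73A (7.33) and SYD-N-GFP syd-5 swi3d-1 (7.55 and 6.80) were the lowest. It was among the 100 strongest peaks of 22 lists, more than any other common region.

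CESA1 (AT4G32410), a catalytic subunit of the cellulose synthase of primary cell walls, held the second-highest region (chromosome 4, 15645349 to 15647660, mean percentile 99.1). It was the most even of all common regions by percentile, with an SD over lists of 0.821. Its fold was 8.83 and 8.90 in BRM-GFP brm-1, 15.7, 16.8, 11.4 and 9.92 in SYD-N-GFP syd-5 replicates 1 to 4, and 9.34 and 10.3 in MINU2-GFP minu2-1. The BSH list had 11.2 and the SWI3A list 8.33. Here the MINU2 lists were above the BRM lists, and the lowest values were 4.49 and 4.67 in SYD-N-GFP syd-5 swi3d-1.

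The other 10 regions of highest mean percentile were at AT1G04000, NOI, AT5G55040, AT5G01850, AT4G03115, AT5G09620, SAUL1, AT5G40340, AT5G50900 and AT1G45688. Their mean percentiles ranged from 97.95 to 98.9. SAUL1 encodes a ubiquitin ligase known for a part in preventing early senescence. Its region (chromosome 1, 7216309 to 7217779) had a fold of 4.996 ± 0.108 (SD, n = 2) in BRM-GFP brm-1, 14.3 ± 1.84 (SD, n = 4) in SYD-N-GFP syd-5 and 7.27 ± 0.169 (SD, n = 2) in MINU2-GFP minu2-1. AT5G50900 (chromosome 5, 20705776 to 20708504) had 14.5 ± 0.202, 16.7 ± 3.61 and 5.57 ± 0.0600 in the same order. By mean fold, AT1G22882, AT2G18090 and AT3G26539 joined Cand1 and AT4G03115 among the highest 5, with highest folds of 21.1 to 22.2, each in SYD-N-GFP syd-5 replicate 2.

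**Figure D4:**
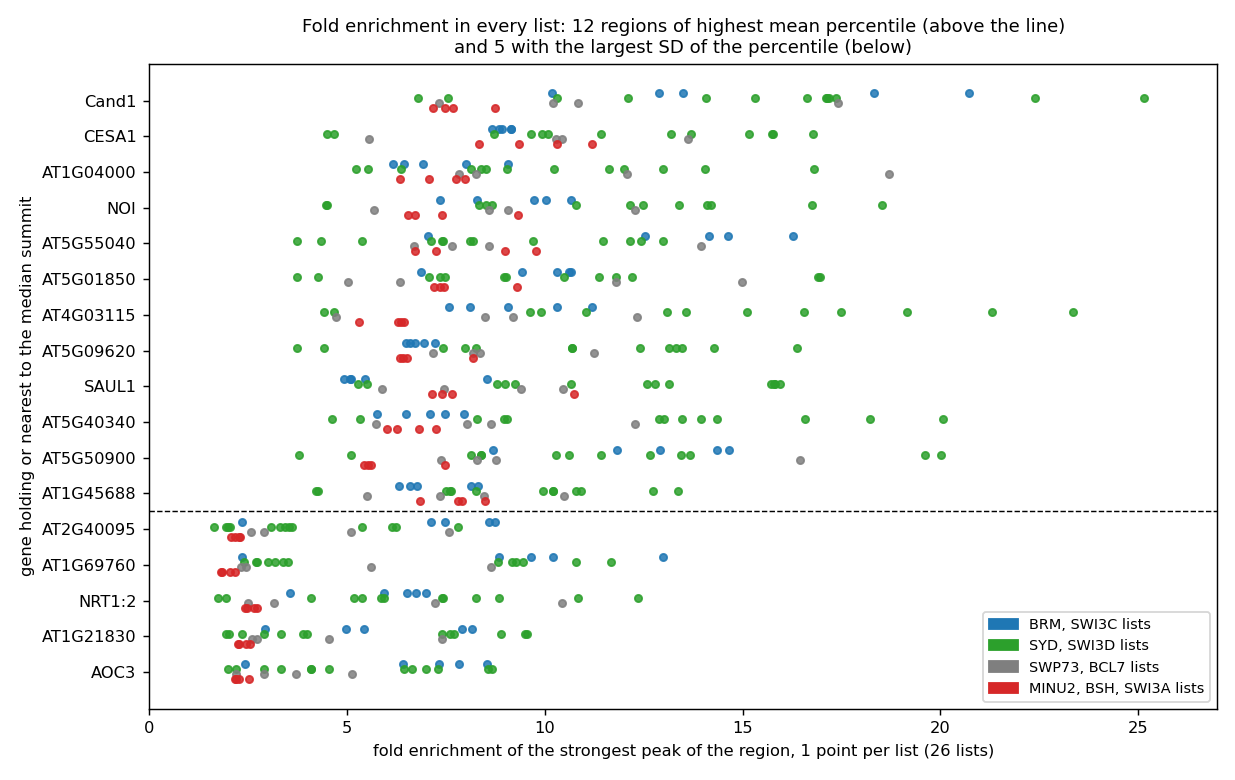
Fold enrichment (horizontal axis) of the strongest peak in each of 26 lists, 1 point per list, coloured by subunit. Above the dashed line are the 12 common regions of highest mean percentile, below it the 5 with the largest SD of the percentile. At Cand1 the points span 6.80 to 25.1, and at AT1G69760 the BRM and SYD ATPase lists without swi3d-1 lie at 8.82 to 12.99 while the MINU2, BSH and SWI3A lists lie at 1.82 to 2.16.

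The 5 regions with the largest SD of the percentile stood high in the BRM-GFP brm-1 and SYD-N-GFP syd-5 lists and low in the MINU2 lists. Other lists varied, and at AT2G40095 and NRT1:2 the lowest percentile, 0.191 and 2.28, was in SYD-N-GFP syd-5 swi3d-1 replicate 1. At AT2G40095, SYD-N-GFP syd-5 brm-1 had percentiles of 56.7 and 56.5. At AT1G69760 (chromosome 1, 26237134 to 26249770) the fold was 12.99 and 10.2 in BRM-GFP brm-1. The BRM-GFP brm-1 syd-5 lists gave 8.85 and 9.66, and it was 8.82, 11.7, 9.17 and 9.26 in SYD-N-GFP syd-5 replicates 1 to 4. It was 1.82 and 1.85 in MINU2-GFP minu2-1, 2.05 in BSH-GFP bsh and 2.16 in SWI3A-GFP swi3a-3. SWI3C-GFP had a fold of 2.33 and the SWI3D-GFP swi3d-1 lists 2.72 to 3.52. By percentile these lay well above the low lists, at 58.5 and at 71.3, 86.9 and 85.5, against 1.30 to 16.5 in the MINU2, BSH and SWI3A lists. The other regions of this kind were at AT2G40095, AT1G21830, NRT1:2, a nitrate transporter gene, and AOC3, which encodes an enzyme of jasmonate synthesis. In these 4 the mean fold was 6.63 to 8.67 in BRM-GFP brm-1, 6.39 to 10.1 in SYD-N-GFP syd-5 and 2.17 to 2.54 in MINU2-GFP minu2-1. None of the 5 has a base covered by all lists, and the summits within each spread over 3406 to 9201 bp, so different lists peak at different places in them.

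At the other end, the lowest mean percentile (36.6) was at AT2G45040 (chromosome 2, 18576702 to 18579484). Its fold was 1.80 in both BRM-GFP brm-1 lists, 2.47 and 3.73 in MINU2-GFP minu2-1, and 3.01, 3.34, 3.27 and 3.05 in SYD-N-GFP syd-5 replicates 1 to 4. No list exceeded 3.73 there. The next were MOT2, a molybdate transporter gene, ACO1, AT1G69840 and AT5G18610, with mean percentiles of 39.8 to 42.6. The widest common region, 22752 bp with 141 peaks, was chromosome 1, 4522450 to 4545201, nearest to GATL3. PUB9, AT3G52460, HB5 and IAA9 followed, with 19827, 16360, 13845 and 13407 bp.

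Common regions were counted at the genes of hormone pathways, where 35 of 117 genes in 7 lists held one (29.9%). A gene counts as holding one if the median summit over lists lies in it or nearest to it, with no limit on the distance. Of all 27444 protein-coding genes, 2204 (8.03%) did so. In the abscisic acid list 9 of 18 genes did (50%, exact 95% binomial interval 26.02% to 74.0%). The 9 are the receptors PYL4, PYL5, PYL6 and PYL8, the phosphatases HAB1, HAB2 and PP2CA that the receptors inhibit, the transcription factor ABI5 and the biosynthetic enzyme NCED3. In the jasmonate list, the JAZ repressors, 5 of 10 did (JAZ1, JAZ3, JAZ5, JAZ6 and JAZ10).

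Of 14 brassinosteroid genes 6 held a common region. They were the receptor BRI1 and its co-receptor BAK1, the kinase BIN2 that restrains the pathway, the transcription factor BZR1, and the synthesis enzymes DWF4 and DET2. Of 16 gibberellin genes 5 did: the DELLA repressors GAI, RGL1 and RGL3, the receptor GID1B and the catabolic enzyme GA2OX6. Of 19 auxin genes 5 did: the receptors TIR1, AFB2 and AFB3 and the response factors ARF6 and ARF8. Of 24 genes of the Aux/IAA repressors 3 did, and of 16 SAUR genes 2 did, both 12.5% against 8.03% of all protein-coding genes.

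The 30 hormone genes of the abscisic acid, jasmonate, brassinosteroid, gibberellin and auxin lists were 39.0% of the 77 matched, a grouping made after the counts were seen that leaves out the Aux/IAA and SAUR lists, both at 12.5%. Their common regions were wide, with a median merged width of 4371 bp against 2805 bp for all common regions, and 2 of the 30 had exactly 1 peak per list. The median summit lay inside the gene in 11 of the 30, and inside a gene in 47.4% of all common regions. In 6 of the 30 no base was covered by every list, while 85.8% of all common regions had such a base. Counting only common regions with 1 peak per list, 2 of the 77 genes remained (2.60%), against 2.66% of all protein-coding genes. With all summits within 500 bp there were 6 (7.79%), against 2.84%. With the −log10 q limited to 10 or more, 11 genes held a common region (14.3%), against 1.10%, and with equal numbers of strongest peaks 4 did (5.19%), against 0.572%. The share of hormone genes thus fell to that of all genes in regions of 1 peak per list and stayed above it in the other settings given here, and the part of width in it was not tested. A merged region of any number of lists was held by 72 of the 77 genes and by 63.2% of all protein-coding genes. The part of this difference in the share was not tested either.

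In 26 of these 30 regions the mean percentile was lower in the MINU2 lists than in both the BRM-GFP brm-1 and the SYD-N-GFP syd-5 lists, as it was in 1570 of all 2240 common regions (70.1%). At BRI1 (chromosome 4, 18317900 to 18326996) the fold was 13.4 and 13.6 in BRM-GFP brm-1, and 11.3, 12.5, 10.5 and 9.98 in SYD-N-GFP syd-5 replicates 1 to 4. It was 2.97 and 3.07 in MINU2-GFP minu2-1, 2.68 in BSH-GFP bsh and 3.13 in SWI3A-GFP swi3a-3. The MINU2, BSH and SWI3A values lay below all BRM and SYD ATPase lists, of which the lowest were 3.26 and 3.18 in SYD-N-GFP syd-5 swi3d-1.

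BIN2 (chromosome 4, 10294341 to 10297866) had the highest mean percentile of the hormone genes, 96.3. Its fold was 11.9 ± 0.894 (SD, n = 2) in BRM-GFP brm-1, 14.4 ± 3.02 (SD, n = 4) in SYD-N-GFP syd-5 and 3.88 ± 0.442 (SD, n = 2) in MINU2-GFP minu2-1. TIR1 (chromosome 3, 23275170 to 23280082) had 6.45 ± 0.324, 12.7 ± 2.26 and 4.98 ± 0.383 in the same order, and JAZ10 (chromosome 5, 4216651 to 4222945) had 11.6 ± 1.06, 8.25 ± 0.841 and 3.12 ± 0.0417. Of these 3 lines, SYD-N-GFP syd-5 was the highest at TIR1 and BRM-GFP brm-1 at JAZ10.

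A few hormone and light genes ran the other way. At HAB2 (chromosome 1, 6033596 to 6034839) the fold was 6.25 and 5.68 in MINU2-GFP minu2-1, 3.40 and 3.14 in BRM-GFP brm-1, and 5.39, 6.25, 4.05 and 3.35 in SYD-N-GFP syd-5 replicates 1 to 4. The MINU2 lists were above both BRM lists and overlapped the SYD lists. At COP1 (chromosome 2, 13977354 to 13978435), a ubiquitin ligase that represses light responses, it was 6.50 ± 0.472 (SD, n = 2) in MINU2-GFP minu2-1. BRM-GFP brm-1 had 3.65 ± 0.00906 (SD, n = 2), and it was 5.42 ± 1.195 (SD, n = 4) in SYD-N-GFP syd-5. ARF8 (chromosome 5, 14629085 to 14630080) had 8.20 ± 0.927, 6.22 ± 0.152 and 7.07 ± 0.744 in the same order. These 3 regions were narrow, at 1244, 1082 and 996 bp, with 1 peak of each list.

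Light and clock genes also held common regions. Of 20 light-signalling genes 8 did (40.0%): the photoreceptors PHYA and PHYB, the growth-promoting factors PIF4 and PIF5, COP1 and its partner SPA1, and BBX21 and BBX22. Of 17 clock genes 6 did: LHY, PRR5, TOC1, GI, RVE8 and LNK2. Of all protein-coding genes 8.03% did. With 1 peak per list, 2 light and 1 clock genes remained, against 2.66% of all genes. With all summits within 500 bp there were 2 and 2, against 2.84%. With −log10 q of at least 10 there were 1 and 0, against 1.10%. With equal numbers of the strongest peaks there were 0 and 0, against 0.572%. LHY (chromosome 1, 37598 to 38603), a morning repressor of the clock, had a fold of 3.12 ± 0.196 (SD, n = 2) in BRM-GFP brm-1, 8.69 ± 2.36 (SD, n = 4) in SYD-N-GFP syd-5 and 4.47 ± 0.797 (SD, n = 2) in MINU2-GFP minu2-1. TOC1 (chromosome 5, 24673245 to 24675891), an evening component, had 7.76 ± 0.975, 4.87 ± 0.847 and 3.47 ± 0.277 in the same order. By mean percentile SYD-N-GFP syd-5 was above BRM-GFP brm-1 in 5 of the 6 clock genes, against 63.9% of all common regions.

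Transcription factor and other gene families were counted in the same way. Among the WRKY factors, known for roles in defence, 11 of 67 genes did (16.4%, exact 95% binomial interval 8.49% to 27.5%), and all 11 had lower mean percentiles in the MINU2 lists than in BRM-GFP brm-1 and SYD-N-GFP syd-5, a pattern of 70.1% of all common regions. Heat shock factors had 4 of 16 (25%), TCP factors 3 of 17 (17.6%), core histone genes 2 of 17 (11.8%) and light-harvesting genes 1 of 13 (7.69%). The exact 95% binomial interval of each of these shares includes the 8.03% of all protein-coding genes. The ribosomal protein symbols had 2 of 43, and 1 of these, RPS2, is a disease resistance gene that shares only the symbol.

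The shares of flowering and of meristem genes with a common region had intervals that include the 8.03% of all genes. Of 20 flowering-time genes 0 held a common region (exact 95% binomial interval up to 16.8%). A merged region of any number of lists was held by 16 of them (80%), and by 63.2% of all protein-coding genes. Of 18 meristem and leaf genes only CLV1, a receptor kinase that limits stem cells, held one (5.56%, exact 95% binomial interval 0.141% to 27.3%), and all 18 held some merged region. Intervals cover counting error only.

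**Figure D5:**
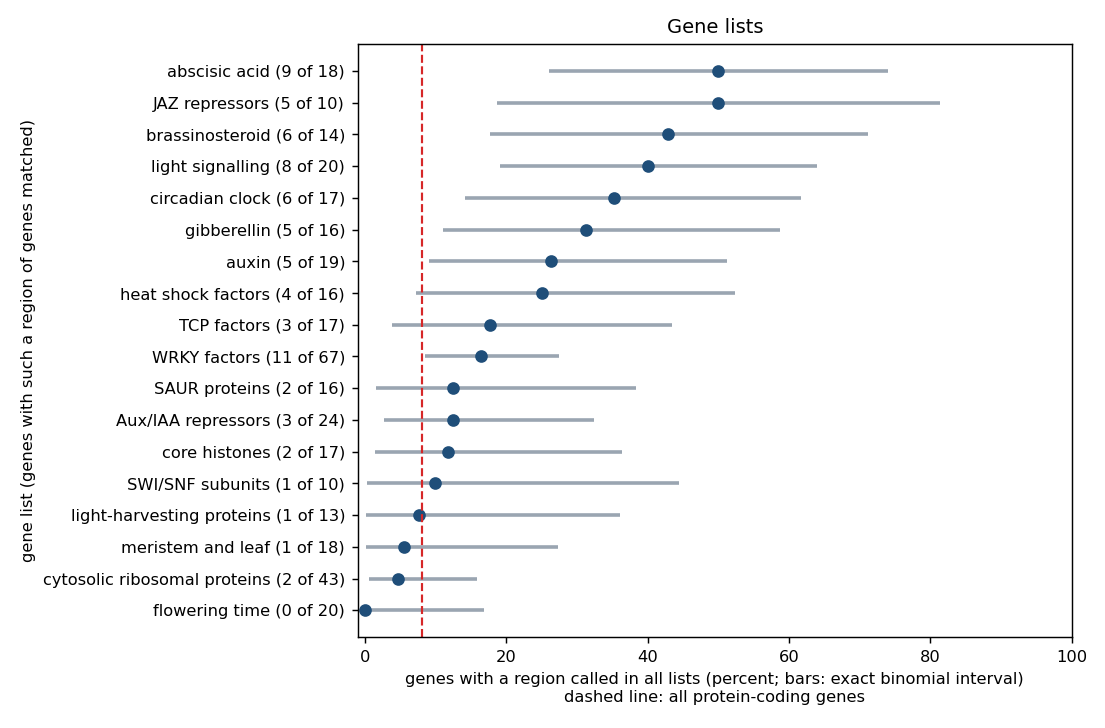
Percent of the matched genes of each list that hold a common region (horizontal axis), with the exact 95% binomial interval as a bar and the counts beside the list name. The dashed line is the 8.03% of all protein-coding genes. The abscisic acid and JAZ lists lie at 50% and the flowering-time list at 0.

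Among 10 matched SWI/SNF subunit genes, BRM itself held a common region (chromosome 2, 18921828 to 18923566, summit inside the gene). This share of 10% was near the 8.03% of all protein-coding genes. Its percentile was between 99.9 and 100 in all 4 BRM-GFP lists, which carry a BRM transgene, with folds of 6.89 and 6.58 in BRM-GFP brm-1. The BRM-GFP brm-1 syd-5 folds were 7.61 and 7.94. Percentiles in all other lists were 97.6 or lower, with folds of 2.14 to 8.63. The region was thus among the 100 strongest peaks in the 4 BRM-GFP lists alone. The part of transgene copies in this signal was not tested.

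The share of summits in genes depended on how common regions were defined. The median summit fell inside a protein-coding gene in 1061 of 2240 (47.4%, exact 95% binomial interval 45.3% to 49.5%), against 52.5% of all merged regions, 49.96% of the regions with 25 lists and 43.2% of those with 1 list. It was 52.2% for the common regions with all summits within 500 bp and 59.9% with equal numbers of the strongest peaks per list. In these settings the difference from the 52.5% was lost or turned. It remained in others, with 48.1% where a base was covered by every list and 48.6% with 1 peak per list. With −log10 q of at least 10 the share was 43.2%. The 52.5% is from the merging of all peaks, also where a setting used only the stronger peaks.

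The share of merged regions that were common was 10.3% on chromosome 1 (621 regions), 8.45% on chromosome 2 (310), 10.4% on chromosome 3 (464), 9.42% on chromosome 4 (326) and 9.66% on chromosome 5 (519). The gap between neighbouring common regions had a median of 24.6 kb and ran from 17 bp to 3.50 Mb, against a median of 2.12 kb between merged regions. Another common region lay within 5 kb for 632 regions (28.2%). Joined at that distance, the regions formed 1892 groups, of which 1608 held a single region, 229 held 2, 48 held 3, 5 held 4 and 2 held 5.

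The first group of 5 was chromosome 3, 19988750 to 20017179, with AT3G53990, AT3G54000, AtIPCS1 (nearest to 2 of the regions) and HCEF1. The other was chromosome 5, 303863 to 332943, with AT5G01780, AT5G01800, CIPK15, SAUR21 and AT5G01850. The densest group of 4 was chromosome 3, 5342196 to 5360471, with MBD11, AT3G15810, ROD1 and FAD5, of which ROD1 and FAD5 encode enzymes of lipid metabolism.

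Each chromosome had a long stretch without a common region, which covers its centromere by textbook knowledge of the build. The stretches were 14167185 to 16835544 on chromosome 1, 2362944 to 5691666 on chromosome 2 and 12454476 to 15951491 on chromosome 3. On chromosome 4 it was 2746630 to 5728889, and on chromosome 5 it was 10800987 to 13900330. Together they made up 15.6 Mb, or 13.1% of the length up to the last peak of each chromosome, and held 645 merged regions, 2.80% of all. In each stretch the most widely called region had peaks in 25 lists. Among 116 full windows of 1 Mb, 9 held no common region, the median was 20 and the highest was 41, in the first window of chromosome 5.

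Strong peaks were not always common. Of 37 regions among the 100 strongest of at least 13 lists, 29 were common and 8 were not. Of the 29, 28 were in the 100 strongest of no MINU2, BSH or SWI3A list. The 8 regions that were not common had peaks in 14 to 20 lists, and none had a peak in any of the 4 BRM, the BCL7A or the BCL7B lists. All 8 had a peak in each of the MINU2, BSH, SWI3A, SWI3C, SWI3D, SWP73A and SWP73B lists. These are the same 12 lists that held organelle peaks, and every list that lacked any of the 8 held none. The other lists without organelle peaks, SYD-N-GFP syd-5 brm-1 replicate 2 and SYD-N-GFP syd-5 swi3d-1 replicate 2, held all 8, and the part of this split in the result was not tested. Each of the 8 lay inside a stretch without common regions, such as chromosome 3, 13590019 to 13592668, at a mean fold of 6.41.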

How the data were processed

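Peak lists of 26 ChIP-seq libraries were used, 1 per sample. The submitters' processing notes name fastp, Bowtie2, MACS2 (version 2.0), deepTools and ChIPseeker and the TAIR10 build, without their settings or the control used for peak calling. Each list has 10 columns and no header. The deposited fold enrichment of a peak is a linear ratio, and what it is relative to is not given in the sources used here. Significance was deposited as −log10 p, which was not used, and −log10 q. The score deposited by the authors is a whole number derived from −log10 q, and the summit offset deposited by the authors gives its position. The lowest −log10 q of a list was 1.30 to 1.52, so a region absent from a list was not called, which does not show it to be unbound. The fold is the authors' value for each peak and was used only to describe and rank peaks. Depth is unknown, and 0 columns of samples were left unmapped.

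Peaks on chromosomes 1 to 5 that shared 1 bp were merged, and regions with a peak of all 26 lists were kept. In each region the strongest peak of a list by −log10 q gave its percentile, fold, width and summit. Groups in the sample table follow the labels, and lines in the text follow the list names. Members and gene lists were chosen with earlier results of these data known. Grouping of subunits by complex class is background knowledge. Named regions were the 12 highest by mean percentile, the 5 each by highest mean fold, lowest mean percentile, largest SD and greatest width, the 3 densest groups, and the members at genes of the lists. HAB2, COP1, ARF8, LHY and TOC1 were picked from the list genes after their values were seen, as were BRI1, BIN2, TIR1 and JAZ10, and the 8 strong regions with no peak in some lists. Genes come from RefSeq's TAIR10.1 table, used for names and for which gene a summit lies in or next to. It has no strand, so positions relative to gene starts, which the design called for, were not computed, and genes were assigned by their nearest edge. Sequence at the summits was not analysed here. Of the symbols in the lists, 18 SWI/SNF subunits, 1 clock gene and 1 gibberellin gene were not matched. No test was made, since peak presence chose the regions. Intervals on shares are exact 95% binomial. The merging was tested on simulated lists of well-separated sites with at most 1 peak per list. The joining of neighbouring peaks into wide regions was not covered by it. Python 3.11.15, pandas 2.3.3, NumPy 2.4.6, SciPy 1.17.1 and matplotlib 3.10.9 were used. The labels describe biological replicates. Alternatives are given in the closing section.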

Additional observations from a re-analysis of the deposited data

Results flagged for a closer look

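Of 44 groups of 4 lists examined, 1 had a value far from the others, and chance alone gives about 1 in 20. Replicate 2 of SYD-N-GFP syd-5 by list name held 17283 peaks, while replicates 1, 3 and 4 held 16114, 16223 and 16082.

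Outside the 5 nuclear chromosomes, 12 of the 26 lists held peaks on the organelle genomes, between 62 and 139 each, and 14 lists held none. These peaks took no part in the common regions.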

How the results depend on the processing

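The main values were 2240 regions, a merged width of 2805 bp, a summit distance of 227 bp, a gap of 24.6 kb, 47.4% of summits in genes and a median percentile of 87.8 (medians over regions, or over lists for the percentile). Listed in that order are values outside the 95% interval of the median or share, numbers of regions that differ from 2240, and percentiles that moved by more than the SD between lists, or where stated. With a base covered by every list there were 1923 regions, the width was 2567 bp, the summit distance 173 bp and the gap 30.4 kb. With all summits within 500 bp there were 789 regions, 1588 bp, 68.7 bp, 80.3 kb and 52.2%. With −log10 q of at least 10 there were 303 regions, 3318 bp, 142 bp, 203 kb and 43.2%. With the 4383 strongest peaks of each list there were 157 regions, 2318 bp, 136 bp, 380 kb and 59.9%, with a percentile of 79.99. With at least 1 list of every line by list name there were 3612 regions, 2386.5 bp, 189 bp and 14.7 kb. By the label there were 3043 regions, the width was 2531 bp, the distance 198 bp and the gap 17.5 kb. The next 4 alternatives were chosen after seeing the data. Without both SYD-N-GFP syd-5 swi3d-1 lists there were 3924 regions, 2426.5 bp, 200.1 bp and 14.3 kb. With only the lists without organelle peaks there were 2601 regions, the width was 2531 bp, the distance 175 bp and the gap 20.5 kb. With only the lists that have them, there were 4122 regions, 1344.5 bp, 99.4 bp, 14.8 kb, 49.95% and a percentile of 70.8. With only regions of 1 peak per list there were 739, 1479 bp, 90.6 bp and 81.1 kb. The alternatives that demand fewer lists or fewer peaks change the number by construction, and the cause of the other moves was not tested.

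Leaving out each list in turn gave 2238 to 2914 regions, widths of 2588 to 2807 bp, distances of 204 to 232 bp, gaps of 18.4 to 24.7 kb, 46.5% to 48.3% in genes and percentiles of 85.6 to 88.1. The highest number and the smallest width, distance and gap came without replicate 2 of SYD-N-GFP syd-5 swi3d-1. The mean over lists of the median percentile was 61.3 for the MINU2, BSH and SWI3A lists and 83.1 for the BRM and SWI3C lists without both SYD-N-GFP syd-5 swi3d-1 lists, and 77.002 and 82.4 with only regions of 1 peak per list, against 66.2 and 88.3. Read by the label, 10 of 15 lines moved and 5 did not. No paired analysis was possible because the results come from no test. The planned windows around gene starts and summit sequences were not run. Depth is unknown, so absence from a short list cannot be told from low yield.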
